A study of Homo sapiens with 6 samples.

Results

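GPAT3 and the other enzymes of triglyceride synthesis were followed in A172, T98G and U87MG, 3 established lines from human glioblastoma, a malignant brain tumour. The set names 10 genes (GPAT3, GPAT4, GPAM, AGPAT1, AGPAT2, AGPAT3, LPIN1, LPIN2, DGAT1 and DGAT2), and 8 of them had a probe set annotated to that gene alone, out of 18417 genes with such a probe set on the array. Each line was transfected with pre-miR338-5p, a precursor that delivers miR-338-5p (the mimic), or with the negative control, and harvested 24 hours later. This gave 6 Affymetrix Human Gene 1.0 ST arrays, 3 per group, with 1 array per line and group. The labels do not say whether each array came from 1 culture or from a pool, so the p-values below measure only the spread between these arrays. GPAT3 heads the set because its level differed between mimic and control on these same arrays. Its change with the mimic is therefore given as a description, without a test. The remaining members belong to the same pathway. They and the gene lists read further below were chosen with earlier results of these data known. Their p-values for the mimic are therefore not tests of a choice made without sight of these arrays.

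Triglycerides are built on a glycerol backbone. Glycerol 3-phosphate acyltransferases (GPAM on mitochondria, GPAT3 and GPAT4 on the endoplasmic reticulum) add the first fatty acid, and acylglycerophosphate acyltransferases (the AGPAT family) add the next to give phosphatidate. Lipins remove the phosphate to give diacylglycerol, and DGAT1 and DGAT2 add the last fatty acid. The product is stored in lipid droplets, which are known from glioblastoma cells, while phosphatidate and diacylglycerol also feed the synthesis of membrane phospholipids.

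The microRNA supplied by the mimic is printed here, since base pairing of its seed, bases 2 to 8, with a messenger RNA is how a microRNA chooses its targets. The other arm of the same hairpin is shown beside it because it has a different seed. Both sequences are RefSeq's (GRCh38.p14), with the seed in capitals, and both lie on the minus strand of chromosome 17 within the span of AATK.
hsa-miR-338-5p: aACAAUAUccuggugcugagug
hsa-miR-338-3p: uCCAGCAUcagugauuuuguug
The 5p arm occupies chr17:81125923-81125944 and the 3p arm chr17:81125887-81125908. The reverse complement of the 5p seed is AUAUUGU, and that of the 3p seed is AUGCUGG. Of 2370 mature human microRNAs in the table, 0 others carry the 5p seed and 0 others carry the 3p seed.

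The array values are RMA log2 expression, so a difference of 1 is a doubling, and levels of different genes cannot be set against each other. Array medians lay between 5.06 and 5.14. Genes in the lowest 25% by mean were left out of the tests, which put the filter level at 4.28 and left 13813 genes, the 8 measured members among them. Of 11 astrocyte and glial progenitor markers, VIM (11.9 to 12.65) and CD44 (11.5 to 11.9) were high on every array, AQP4, S100B and SLC1A2 stayed below the filter level on all 6 arrays, and GFAP lay between 5.07 and 5.38. ALDH1L1, SOX2 and OLIG2 lay between 4.03 and 4.96. SLC1A3, a glutamate transporter of astrocytes, was at 7.89 and 8.02 in U87MG, 6.09 and 6.25 in T98G and 3.95 and 3.85 in A172 (mimic and control), and NES was highest in A172, at 7.15 and 7.29. MGMT, a DNA repair gene, stood at 6.02 with the mimic and 6.14 with the control in T98G, above the 4.88 to 5.15 of A172 and U87MG. Of 6 adipocyte markers, ADIPOQ, LEP and FABP4 were below the filter level on all arrays. PLIN1 (4.65 to 5.07) and LIPE (5.1 to 5.37) were above it on every array, and CIDEC ran from 4.25 to 5.01. The summed level of the list ran from 24.0 to 24.9 on mimic arrays and from 23.6 to 25.04 on control arrays.

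GPAT3 (chromosome 4, 83535587 to 83605875, GRCh38.p14) was lower with the mimic in all 3 lines. In T98G it stood at 7.31 with the mimic and 9.18 with the control, and in U87MG at 8.22 with the mimic and 9.78 with the control. In A172 it stood at 3.99 with the mimic and 4.71 with the control. Only the T98G and U87MG values are well clear of the filter level: the A172 mimic array lies below it and the A172 control array just above it, so that the change in A172 is measured where this probe set was dim.

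On the linear scale GPAT3 was 3.65-fold lower in T98G, 2.96-fold lower in U87MG and 1.65-fold lower in A172. The mean change was -1.38 ± 0.60 on the log2 scale (SD, n = 3 lines), with a mean level of 6.51 on mimic arrays and 7.89 on control arrays. Among the 13813 tested genes, 1 gene had a lower change than GPAT3 in T98G, 3 did in U87MG and 58 did in A172. The size of the change thus differed between lines, and with 1 array per line and group that difference could not be tested. Without the A172 arrays the mean change was -1.72. With both arrays of T98G left out it was -1.14, and without U87MG it was -1.29.

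**Figure D1:**
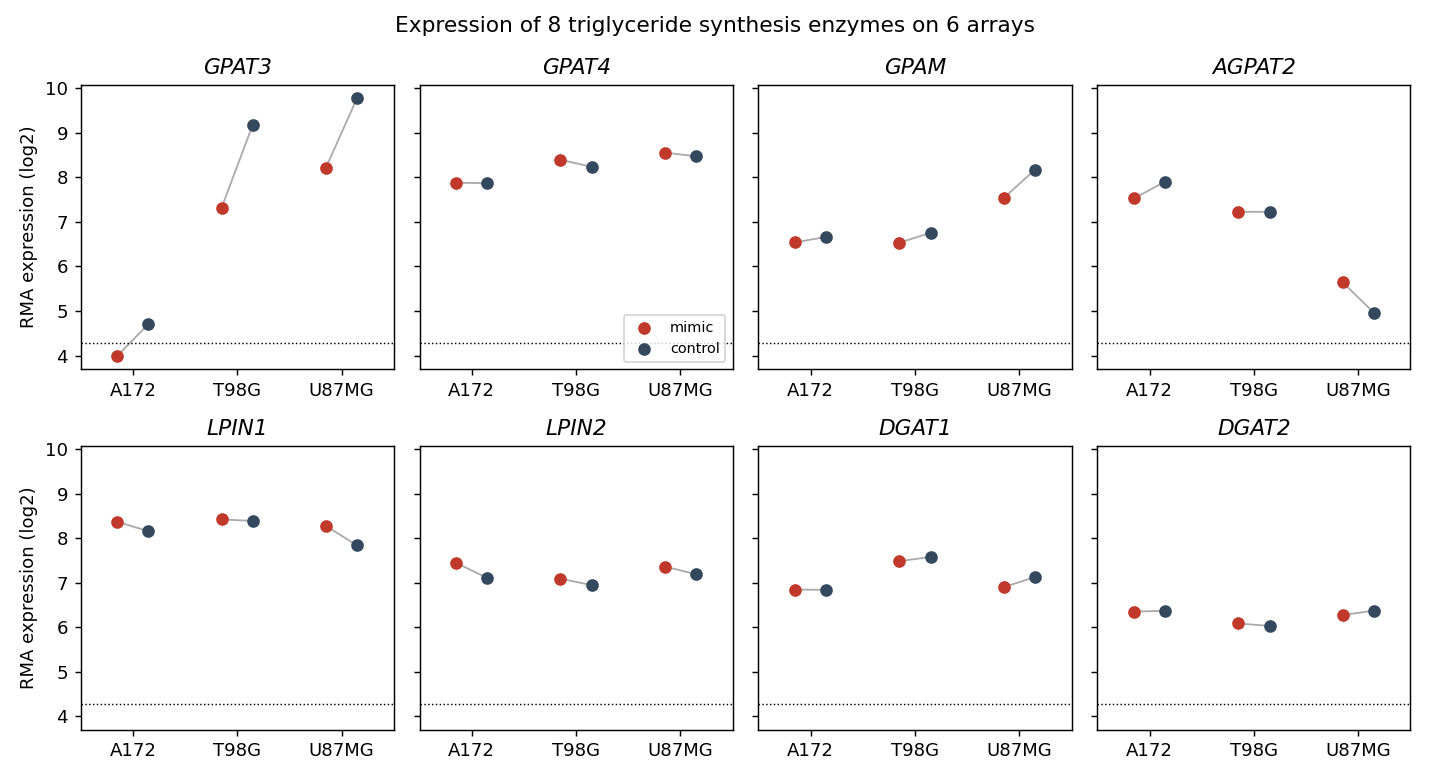
RMA expression (log2) of the 8 measured enzymes in A172, T98G and U87MG, with the mimic array (red) left of the control array (dark blue) of the same line and the filter level of 4.28 dotted. GPAT3 is near that level in A172 and well above it in T98G and U87MG, and its mimic point lies below its control point in every line.

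Neither of the other acyltransferases of the first step was called. GPAT4 had 7.88, 8.39 and 8.56 with the mimic in A172, T98G and U87MG, against 7.87, 8.24 and 8.47 with the control. Mimic and control values of this gene overlap across lines, and its mean change was 0.0834 ± 0.077 (SD, n = 3; adjusted p = 0.727 in limma's fit across all genes). The fit takes the cell line as a block and adjusts over all tested genes by Benjamini-Hochberg, and a gene is called where the adjusted p is under 0.05. GPAM, the mitochondrial enzyme, had 6.54, 6.53 and 7.54 with the mimic in A172, T98G and U87MG, against 6.66, 6.76 and 8.17 with the control. It was lower in each line, most in U87MG, where 123 of 13813 genes had a lower change. Its mean change of -0.33 ± 0.27 (SD, n = 3) was not called (limma adjusted p = 0.319).

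At the next step only AGPAT2 could be read. The 3 probe sets that include AGPAT1 are annotated jointly to PPT2-EGFL8, hold 1 identical set of values between 7.24 and 7.57, and give no level for AGPAT1 alone. No probe set was named for AGPAT3 in the annotation used here. AGPAT2, which is mutated in an inherited loss of fat tissue, had 7.53, 7.23 and 5.64 with the mimic in A172, T98G and U87MG, against 7.90, 7.22 and 4.96 with the control. The change was -0.38 in A172, 0.00318 in T98G and 0.69 in U87MG, so the lines did not share a direction. The U87MG control value lies only 0.68 above the filter level, so the rise in U87MG is measured where this probe set was dim. The mean of 0.10 ± 0.54 (SD, n = 3) was not called (limma adjusted p = 0.877).

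The lipins were higher with the mimic in every line, by amounts that were not called. LPIN1, which also acts as a nuclear coregulator, had 8.37, 8.42 and 8.27 with the mimic in A172, T98G and U87MG, against 8.15, 8.39 and 7.83 with the control. Its mean change was 0.23 ± 0.20 (SD, n = 3; limma adjusted p = 0.425). LPIN2 had 7.44, 7.09 and 7.36 with the mimic, against 7.10, 6.94 and 7.19 with the control, in the same order of lines. Its mean change was 0.22 ± 0.11 (SD, n = 3; limma adjusted p = 0.335). For both lipins mimic and control values overlap once the lines are pooled.

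Both enzymes of the last step had small changes that were not called. DGAT1, whose 2 probe sets carry identical values and so count as 1 reading, had 6.84, 7.48 and 6.90 with the mimic in A172, T98G and U87MG, against 6.84, 7.58 and 7.12 with the control. Its mean change was -0.10 ± 0.12 (SD, n = 3; limma adjusted p = 0.673). DGAT2, the other enzyme of this step and unrelated to DGAT1 in sequence, had 6.35, 6.08 and 6.27 with the mimic, against 6.37, 6.03 and 6.37 with the control. Its mean change was -0.0187 ± 0.0754 (SD, n = 3; limma adjusted p = 0.949).

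**Figure D2:**
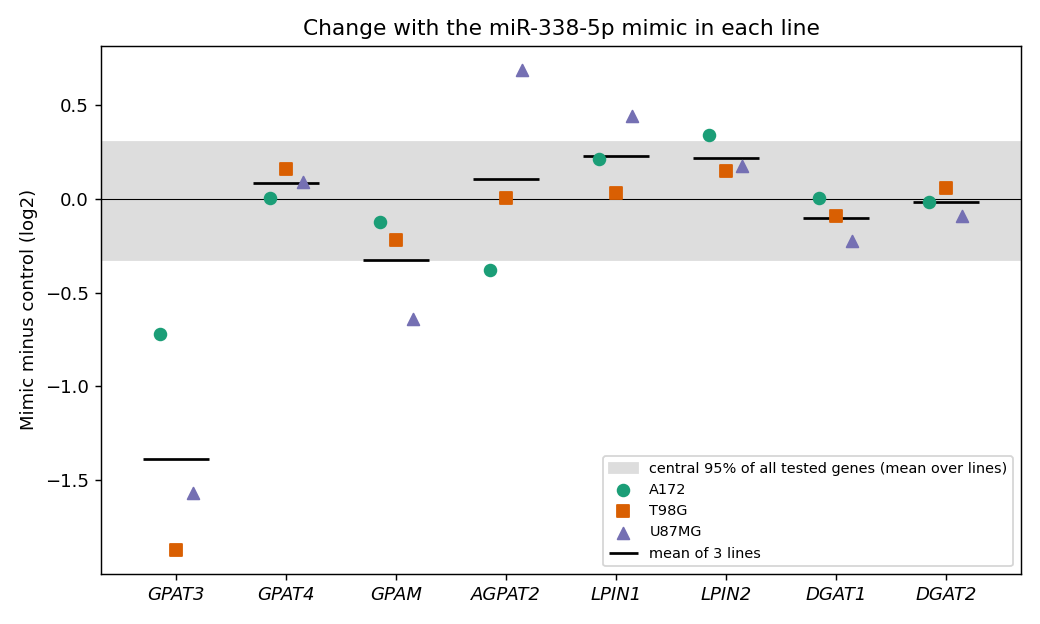
Mimic minus control (log2) of the 8 enzymes in A172 (circles), T98G (squares) and U87MG (triangles), with the mean of the lines as a bar and the central 95% of all tested genes' mean changes (-0.33 to 0.30) in grey. The grey applies to the bars. For single lines the central 95% was wider, at -0.44 to 0.46 in A172, -0.48 to 0.42 in T98G and -0.45 to 0.43 in U87MG. The GPAT3 points lie between -1.87 and -0.72, AGPAT2 spreads from -0.38 to 0.69, and both DGAT genes stay close to 0.

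In this fit 1 of the 8 measured members, GPAT3, was called, beside 1.11% of all tested genes (0.789% lower and 0.319% higher), and nothing is read from that count because GPAT3 was chosen on this contrast. Members lower in all 3 lines were GPAT3 and GPAM, while 15.8% of all tested genes were lower in all 3. GPAT4, LPIN1 and LPIN2 were higher in all 3 lines, and 18.5% of all tested genes were.

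The lines themselves differed far more than the groups in several of these enzymes, and this comparison was not used to choose them. Limma's F test over the 3 lines, with the transfection group as a term and 2 arrays per line, called 6 of the 8 members (GPAT3, GPAT4, GPAM, AGPAT2, DGAT1 and DGAT2), beside 67.5% of all tested genes. The members' share is thus close to that of the arrays as a whole. The call of DGAT2 held in 4 of 13 alternatives and the other 5 in all 13. The widest difference was that of GPAT3. Over both groups its mean level was 9.001 in U87MG, 8.25 in T98G and 4.35 in A172.

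GPAT3 was 3.90 ± 0.25 higher in T98G than in A172 (log2, ± SE of the fit) and 4.65 ± 0.25 higher in U87MG than in A172. The A172 arrays lie at or near the filter level, so the true size of these differences is uncertain. The limma adjusted p was 3.76e-05 for T98G and 1.52e-05 for U87MG, and both calls held in all 13 alternatives tried. These alternatives overlap. For a pair of lines, leaving out either array of the third line gave the same difference and adjusted p. The probe set rule left the members' own values unchanged. Even with the mimic, T98G and U87MG had more GPAT3 signal than the A172 control array. U87MG exceeded T98G by 0.75 ± 0.25 (limma adjusted p = 0.045), and this call held in 8 of 13 alternatives. The difference was positive in all 13, from 0.39 to 1.12. It was 0.39 without the T98G mimic array (adjusted p = 0.245), 0.89 without the U87MG mimic array (0.115) and 0.62 without the U87MG control array (0.246). With no filter and without the transfection group in the model it was 0.75, with adjusted p of 0.0631 and 0.421.

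GPAM and AGPAT2 set U87MG apart in opposite directions. GPAM was 1.25 ± 0.14 higher in U87MG than in A172 and 1.21 ± 0.14 higher in U87MG than in T98G (log2 ± SE; limma adjusted p = 0.000375 and 0.000506), and T98G minus A172 was 0.0432 ± 0.14 (adjusted p = 0.821). AGPAT2 went the other way, with U87MG minus A172 at -2.41 ± 0.23, or 5.33-fold higher in A172, and U87MG minus T98G at -1.92 ± 0.23 (limma adjusted p = 0.000191 and 0.000622). T98G minus A172 was -0.49 ± 0.23 for AGPAT2 (adjusted p = 0.119), which was called only without the A172 mimic array (0.017), the U87MG mimic array or the U87MG control array (0.0243 each). The U87MG calls of both genes held in all 13 alternatives. AGPAT2 was dim in U87MG, at 5.64 with the mimic and 4.96 with the control, so the true size of its U87MG differences is uncertain.

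Differences of the remaining members were smaller. GPAT4 was 0.64 ± 0.091 higher in U87MG and 0.44 ± 0.091 higher in T98G than in A172 (log2 ± SE; limma adjusted p = 0.00124 and 0.00685), and the T98G call was lost without the A172 mimic array (0.0631). U87MG minus T98G was 0.20 ± 0.091 for GPAT4 (adjusted p = 0.121). DGAT1 was highest in T98G, by 0.69 ± 0.097 over A172, while U87MG minus T98G was -0.52 ± 0.097 (limma adjusted p = 0.00126 and 0.00499). U87MG minus A172 was 0.17 ± 0.097 for DGAT1 (adjusted p = 0.18).

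T98G minus A172 was -0.30 ± 0.091 for DGAT2 (limma adjusted p = 0.0304), a call that was kept in 7 of 13 alternatives. It was lost without the A172 mimic array (0.132), the T98G mimic array (0.0568), the A172 control array (0.137) and the T98G control array (0.173), with no filter (0.0523) and with arrays centred on their medians (0.0622). U87MG minus T98G was -0.35 ± 0.12 for LPIN1 (limma adjusted p = 0.0476), kept in 6 of 13 alternatives. That call was lost without the A172 mimic array or the A172 control array (0.0587 each), the T98G control array (0.292) and the U87MG control array (0.322), with no filter (0.0722), with centred arrays (0.05) and without the group term (0.116). LPIN2 was called in no pair of lines, with T98G minus A172 at -0.26 ± 0.095 (adjusted p = 0.0626, called in 3 of 13 alternatives) and U87MG minus T98G at 0.26 ± 0.095 (adjusted p = 0.0651, called in 2). In single pairs, 4 of 8 members were called for T98G minus A172, beside 50.5% of all genes, 4 for U87MG minus A172, beside 54.2%, and 5 for U87MG minus T98G, beside 47.1%.

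**Figure D3:**
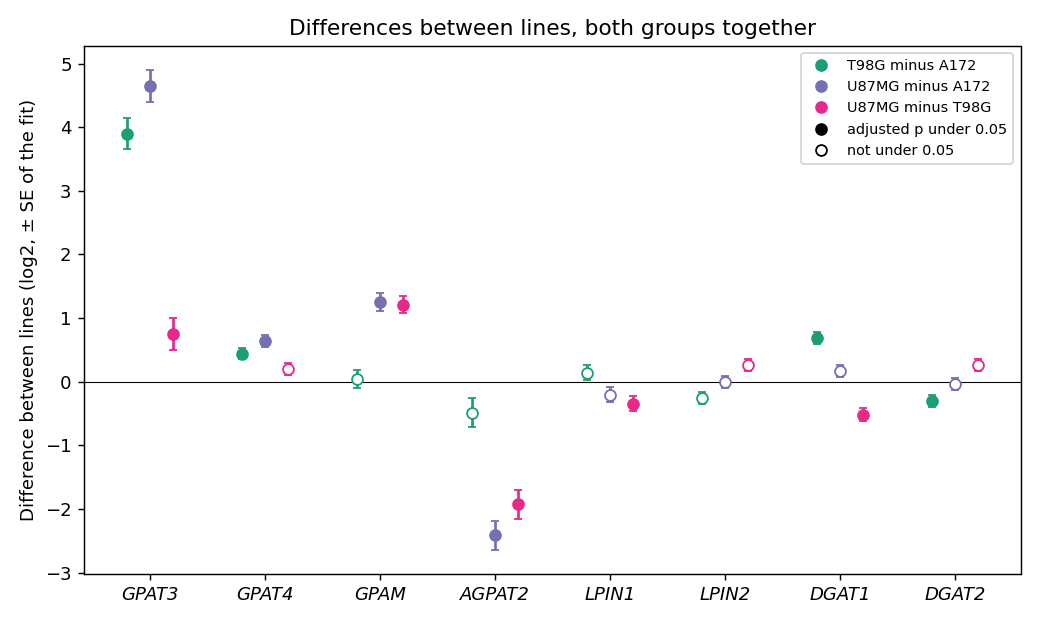
Differences between lines (log2, mean of both groups, bars ± SE of the fit) for the 8 enzymes, with filled points where limma's adjusted p was under 0.05. GPAT3 lies at 3.90 and 4.65 for T98G and U87MG over A172, AGPAT2 at -2.41 and -1.92 for U87MG against A172 and T98G, and the lipins and DGAT2 within 0.35 of 0.

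Over the 6 arrays, the members most like GPAT3 in level were GPAT4 (Pearson r = 0.85) and GPAM (r = 0.671), and the least like was AGPAT2 (r = -0.731). These values are a description: the 6 points are 3 lines sharing 2 arrays each, so the lines carry most of r. Among 3165 genes with an SD over arrays of at least 0.5, the highest r with GPAT3 belonged to TMEM161B (0.993), CPOX, an enzyme of haem synthesis (0.992), ERC1 (0.989), PSMA3, a proteasome subunit (0.987), and STARD5, a sterol-binding protein (0.985). By the 3 changes with the mimic, the nearest genes were ATAD1, TMEM64, MMD, SYPL1 and SCML1, at Euclidean distances of 0.423 to 0.724. MMD was also dim in A172, at 3.92 with the mimic and 5.26 with the control.

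The rest of the pathway and its neighbours were read from 8 lists of 123 genes, of which 106 were tested, 3 were called lower and 1 higher with the mimic, beside 0.789% lower and 0.319% higher over all genes. At an unadjusted p under 0.05 there were 13, beside 11.8% of all genes. The 12 tested other enzymes of triglyceride synthesis and related acyl transfer, such as AGPAT4, AGPAT5 and LPIN3, held 0 called genes by limma in either direction (1 at an unadjusted p under 0.05), with a median change of -0.0378 beside 0.00679 over all genes. MBOAT7, which acylates lysophosphatidylinositol, was at -0.21 ± 0.14 (adjusted p = 0.396), and PLPP3, a lipid phosphate phosphatase, at 0.23 ± 0.23 (adjusted p = 0.436). MOGAT1 and MOGAT2, which also make diacylglycerol, lay below the filter, while MOGAT3 passed it and is among the 12 tested.

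Among 14 tested genes of lipid droplet coat and assembly, RAB18, a small GTPase found on lipid droplets, fell and 13 were not called (list median -0.0344). Over all tested genes 0.789% were called lower. RAB18 had 8.80, 8.52 and 8.75 with the mimic in A172, T98G and U87MG, against 9.36, 9.08 and 9.31 with the control. Every mimic value lay below every control value, as in 1.56% of all tested genes, and the change of -0.564 ± 0.00261 (SD, n = 3; limma adjusted p = 0.0239) had nearly the same size in each line. The call was lost with no filter (0.0531) and without A172 (0.0893), T98G (0.0519) or U87MG (0.183). FITM1, of the fat storage-inducing family, was at -0.13 ± 0.18 (adjusted p = 0.64).

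In the branch that uses phosphatidate and diacylglycerol for phospholipids, 25 genes were tested, 1 rose and 1 fell (0.319% and 0.789% of all genes). Of the 25, 5 had an unadjusted p under 0.05, beside 11.8% of all tested genes, and the list median was -0.0579. PTPMT1, a mitochondrial phosphatase of cardiolipin synthesis, had 8.56, 8.72 and 7.74 with the mimic in A172, T98G and U87MG, against 7.60, 7.65 and 6.46 with the control. Every mimic value lay above every control value, as in 1.40% of all tested genes. PTPMT1 rose by 1.10 ± 0.16 (SD, n = 3; limma adjusted p = 0.00712, and 0.09 without U87MG). ETNK1, an ethanolamine kinase of phosphatidylethanolamine synthesis, had 5.69, 6.03 and 6.29 with the mimic, against 6.32, 6.63 and 7.04 with the control. All mimic values of ETNK1 were below all control values, as in 1.56% of all tested genes. ETNK1 fell by 0.66 ± 0.076 (limma adjusted p = 0.0202, 0.0593 without A172 and 0.163 without U87MG).

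Of 18 tested lipogenic regulators, 1 fell and 17 were not called (median -0.0108), beside 0.789% of all tested genes called lower. INSIG2, which retains the SREBP activator SCAP in the endoplasmic reticulum, had 5.66, 5.85 and 5.93 with the mimic in A172, T98G and U87MG, against 6.17, 6.66 and 6.39 with the control. Every mimic value of INSIG2 lay below every control value, as in 1.56% of all tested genes, and it fell by 0.59 ± 0.19 (SD, n = 3; limma adjusted p = 0.0464). The call was lost with no filter (0.0918) and without A172 (0.101), T98G (0.0838) or U87MG (0.194). PPARA, a receptor that drives fatty acid oxidation, was at 0.44 ± 0.12 (adjusted p = 0.072). It was called in 3 alternatives, with adjusted p of 0.0167 with the lower 50% of genes left out, 0.0254 with a prior variance tracking expression and 0.0463 with repeated quantile normalization.

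The other 4 lists held 0 genes called by limma in either direction, beside 1.11% of all tested genes, so lists of this size would rarely hold one. At an unadjusted p under 0.05 they held 1, 1, 0 and 1 genes, beside 11.8% of all tested genes. In the same order, the medians were -0.0606 for glycerol 3-phosphate supply (6 genes), -0.0462 for fatty acid activation and uptake (8 genes), -0.0383 for fatty acid synthesis (13 genes) and -0.0784 for lipolysis (10 genes). The gene of smallest p was GPD1, glycerol 3-phosphate dehydrogenase, in the list of glycerol 3-phosphate supply, at -0.23 (adjusted p = 0.315), and ACSL5, an acyl-CoA synthetase, in that of fatty acid activation and uptake, at -0.24 (adjusted p = 0.308). In lipolysis DDHD2, a phospholipase and triglyceride lipase, was at -0.28 ± 0.057 (adjusted p = 0.184) and was called with a prior variance tracking expression (0.0409), and MGLL, monoglyceride lipase, was at -0.21 ± 0.21 (adjusted p = 0.454). In fatty acid synthesis SCD5, a desaturase, was at 0.15 and ELOVL6, an elongase, at -0.15 (adjusted p = 0.517 and 0.537). GPD2 at 0.10 and ACSL1 at -0.11 were the next genes of the first 2 lists (adjusted p = 0.655 and 0.654).

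**Figure D4:**
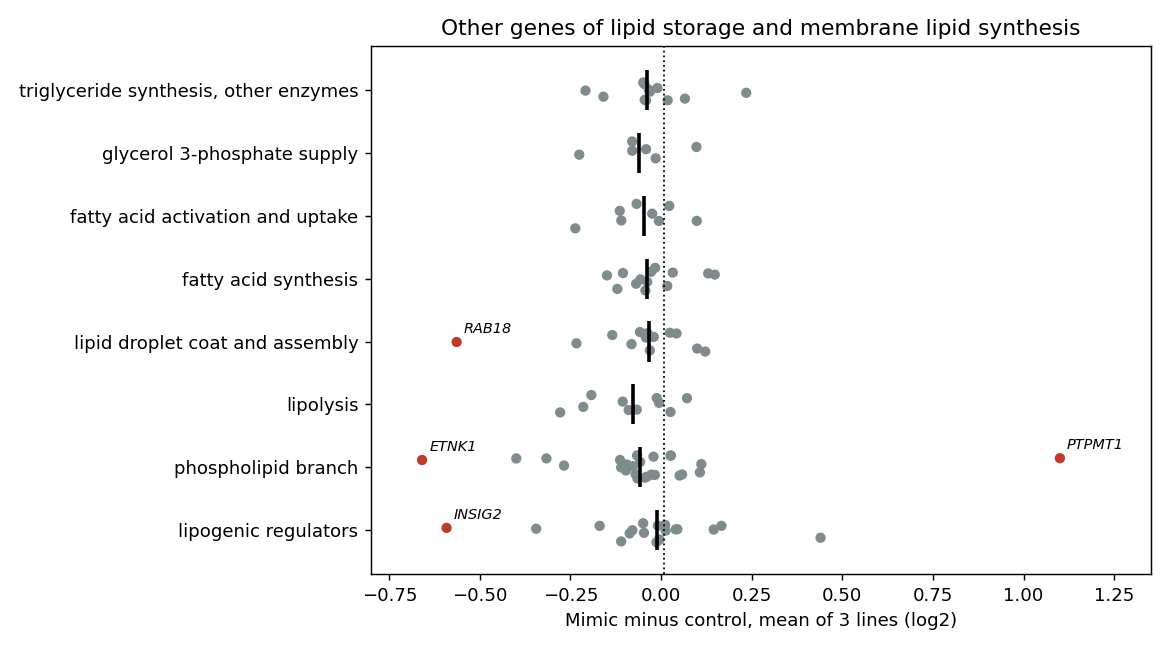
Mimic minus control (log2, mean of 3 lines) of the 106 tested genes in 8 lists, with called genes in red and named, the list median as a black bar and the median of all genes dotted. PTPMT1 at 1.10 stands alone to the right, RAB18, ETNK1 and INSIG2 lie between -0.66 and -0.56, and the list medians run from -0.0784 to -0.0108.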

How the data were processed

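The authors deposited log2 expression of 33297 probe sets on 6 arrays. Per the submitters' processing notes it was made with RMA (oligo, R 3.0.1); other steps are not stated there. RMA's quantile step would largely remove a change shared by most genes. The deposited log2 values were used as they stood. Platform annotation gave 1 symbol for 19460 probe sets (19429 matched to RefSeq GRCh38.p14 by gene identifier), several for 1754 and none for 12083. The brightest probe set stood for each gene, and the lowest 25% of genes were left out. Limma 3.58.1 in R 4.3.3 fitted the mimic with the cell line as block (2 residual degrees of freedom, 6.56 with the variance prior), and the lines with the group as a term. Lines come from the labels; deviations from group means correlated within a line at r = 0.951 to 0.958. Both fits were tested on simulated data. The number of arrays limits the precision. The labels name no batch, so a batch that followed the groups cannot be told apart from the mimic.

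The members and lists were chosen with earlier results of these data known. Named genes are the members, and per list the genes called and the 2 of smallest p, with the 5 genes most like GPAT3 by each measure. Alternatives changed the filter, variance prior, scaling, block, group term and probe set rule, and left out arrays. Target sites in 3' UTRs were not analysed here.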

Additional observations from a re-analysis of the deposited data

Results flagged for a closer look

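AGPAT2 stood out because its change with the mimic had opposite directions in different lines, each by at least 0.25 on the log2 scale. The change was 0.69 in U87MG and -0.38 in A172, which is 1.07 apart. The U87MG control array, at 4.96, lies only 0.68 above the filter level, so the change in U87MG is measured where this probe set was dim. With 1 array per line and group the difference was not tested. In U87MG 52 of the 13813 tested genes had a higher change, and in A172 503 had a lower one.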

How the results depend on the processing

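Over all genes the number called with the mimic was 153. It was 60 with no filter, 360 with the lower 50% of genes left out and 471 with a prior variance tracking expression. With no replicate block, that is without pairing the arrays by line, limma called 0 genes (127 at an unadjusted p under 0.05). Leaving out 1 line gave 0 (without U87MG, 1339 at an unadjusted p) to 117 genes, and 64 without A172. Over the 10 alternatives the GPAT3 change ran from -1.72 without A172 to -1.14 without T98G. Its sign is no check, since GPAT3 was lower with the mimic in each line and leaving out a line could not turn it. Changing the filter, variance prior or block leaves the size of the change as it is. The mean change of AGPAT2 ran from -0.19 without U87MG to 0.34 without A172, and that of DGAT2 from -0.0564 without T98G to 0.0191 without U87MG, so both turned sign, and neither was called. Without the block RAB18, PTPMT1, ETNK1 and INSIG2 were not called either (adjusted p = 1.00 for each). The count of genes that differed between lines stayed within 1.5 times of 9321. Fits that drop a line have fewer degrees of freedom left, so a lost call does not show that a change rests on that line.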
